A study of Arabidopsis thaliana with 6 samples.

Results

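In Arabidopsis thaliana leaves that carry the fusion AN3-GR, transcripts of 10 chlorophyll biosynthesis genes were set against those of wild type leaves. The genes were HEMA1 (AT1G58290_at), GUN4 (AT3G59400_at), CHLH (AT5G13630_at), CHLI1 (AT4G18480_at), CHLD (AT1G08520_at), CHLM (AT4G25080_at), CRD1 (AT3G56940_at), PORB (AT4G27440_at), PORC (AT1G03630_at) and CAO (AT1G44446_at). They were taken by locus, as the 10 of 21428 probe sets that carry these loci, and all 10 were measured. The rule used no expression value, but the genes were chosen with earlier results of these data known. The array platform was the Affymetrix ATH1 array, and each value is the log2 expression of a probe set after RMA, so that a difference of 1 is a doubling. The AN3-GR group held 3 arrays from plants in which the growth regulator AN3 is fused to GR, the steroid-binding domain of the glucocorticoid receptor. The wild type group held 3 arrays. Both genotypes were of the Columbia-0 accession. Seedlings were raised in vitro to day 8 in long days (16 h light, 8 h dark). Every plant, wild type controls included, then spent 8 h on 5 µM dexamethasone before leaves 1 and 2 were dissected. The promoter behind the fusion and the number of transgenic lines are not given in the sources used here. AN3-GR leaves without dexamethasone were not analysed here, so a standing difference between the lines and a response to the steroid cannot be told apart.

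Chlorophyll is made in the chloroplast from glutamate, by enzymes that nuclear genes encode. The route leads through 5-aminolevulinic acid to protoporphyrin IX, where insertion of magnesium directs it to chlorophyll and insertion of iron to heme. Free intermediates are phototoxic, and the pathway is held in check at the synthesis of 5-aminolevulinic acid and at the magnesium step. In young leaves its genes are expressed together with those of the light-harvesting proteins that bind the pigment, and GLK transcription factors are among their known activators.

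None of the 10 genes passed the test between the genotypes. The count was 0 higher and 0 lower in AN3-GR (limma over all probe sets, Benjamini-Hochberg adjusted p under 0.05), against 0.789% of all probe sets called. The adjusted p-values ran from 0.181 for CHLM to 0.953 for CHLI1. With the replicate number as a block the count of chlorophyll genes was also 0, with adjusted p from 0.104 to 0.927, while 6.63% of all probe sets were called. At an unadjusted p under 0.05 in limma 1 of the 10 passed, CHLM, and 18.0% of all probe sets did.

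Each interval bounds, for its gene alone and at 95% confidence, the change in array signal relative to other genes. All 10 had 95% intervals inside a 1.5-fold change in either direction, which held for 83.1% of all probe sets. The lowest end of any interval was −0.48 on the log2 scale for CHLM, a change of −28.5% in level, and the highest was 0.21 for CHLD, a change of 15.4%. Among the 169 probe sets called in this fit the smallest change was 0.47 in size and the median size 0.67, against at most 0.27 among the chlorophyll genes.

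All 10 estimates were negative, with a median log2 change of −0.08. Over all probe sets 54.2% were negative and the median was −0.02. With the weakest 50% left out, which kept all 10 genes, 41.7% of probe sets were negative and the median was 0.04. The estimates ranged from −0.27 for CHLM to −0.01 for CHLI1, and all lay inside the middle 90% of all probe sets, from −0.35 to 0.36. A sign shared by 10 genes of a coordinated pathway, measured on the same arrays, is a description of these arrays and was given no test. With single arrays left out, between 8 and 10 of the 10 remained negative.

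**Figure D1:**
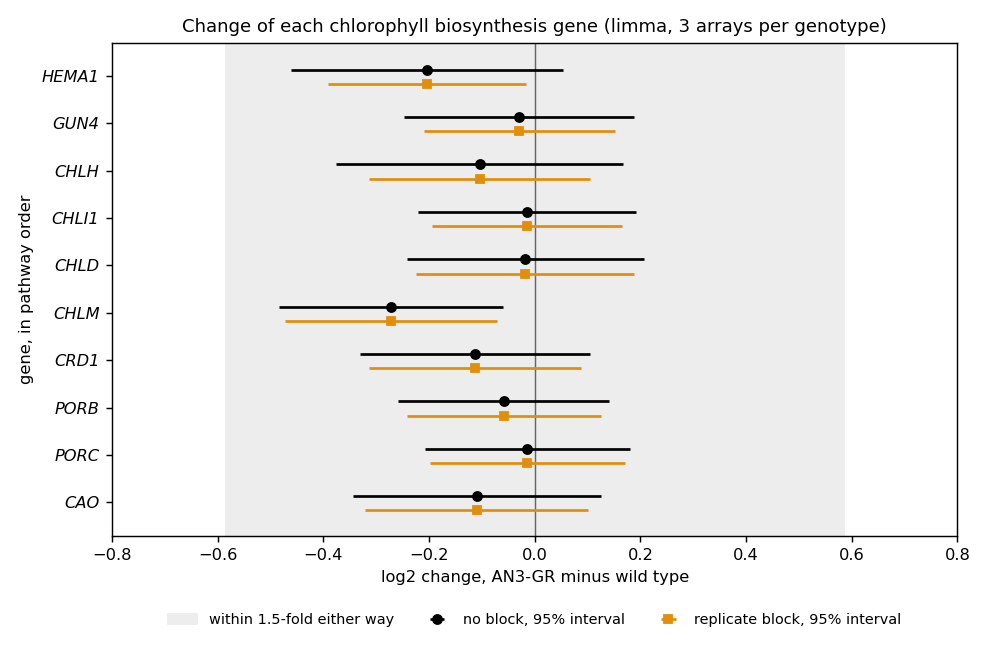
Log2 change of each chlorophyll biosynthesis gene, AN3-GR minus wild type (x axis), with genes in pathway order (y axis), points as estimates and bars as 95% intervals without (black) and with (orange) the replicate block, over 3 arrays per genotype. All intervals lie inside the grey band of a 1.5-fold change, and CHLM has the most negative estimate, −0.27.

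HEMA1 encodes the main glutamyl-tRNA reductase of green tissue, which catalyses the first committed and most tightly controlled step. Its log2 expression was 8.56, 8.34 and 8.42 on AN3-GR replicates 1 to 3 and 8.84, 8.55 and 8.54 on wild type replicates 1 to 3. The AN3-GR values lay below the wild type values except that AN3-GR replicate 1 just exceeded wild type replicates 2 and 3. The log2 change was −0.20 (SE 0.11, 95% interval −0.46 to 0.05; limma, adjusted p = 0.380), from means of 8.44 ± 0.11 and 8.64 ± 0.17 (SD, n = 3 each). With the replicate block the interval lay below 0, from −0.39 to −0.02, but the adjusted p from limma was 0.164. HEMA1 was 1 of 2 chlorophyll genes, with CHLM, whose change was larger than the SD of either group.

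The relatives of HEMA1 did not pass either. HEMA2, the isoform associated with non-green tissue, had a change of −0.12 (SE 0.12; limma, adjusted p = 0.636). HEMA3, a weakly expressed copy, read 4.56, 4.61 and 4.79 in AN3-GR and 4.27, 4.15 and 4.47 in wild type. Its change of 0.35 (SE 0.11) had the opposite sign to HEMA1 and no overlap between groups, with an adjusted p of 0.160 in limma and 0.0519 with the block. Every AN3-GR array lay above every wild type array in 12.8% of all probe sets, and the signal of HEMA3 was near the lower quartile of probe set means, 4.06, where RMA values respond weakly to transcript level.

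Of the 4 genes of the magnesium step, GUN4, CHLI1 and CHLD had estimates near 0, and CHLH had a more negative one. Magnesium chelatase consists of the porphyrin-binding subunit CHLH, known also as GUN5, the ATPase subunit CHLI and the subunit CHLD that joins them, and GUN4 binds porphyrin and stimulates the enzyme. GUN4 read 10.25, 10.14 and 10.31 in AN3-GR and 10.23, 10.20 and 10.36 in wild type, with a log2 change of −0.03 (SE 0.10). The groups overlapped throughout. CHLI1 read 11.86, 11.98 and 11.95 against 11.89, 12.02 and 11.93, a change of −0.01 (SE 0.09). CHLD read 10.62, 10.67 and 10.68 against 10.66, 10.82 and 10.55, a change of −0.02 (SE 0.10). The AN3-GR values of CHLD fell within the wild type range. For these 3 genes the adjusted p-values from limma were 0.900 for GUN4, 0.953 for CHLI1 and 0.944 for CHLD.

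CHLH varied more between arrays than its partner subunits. It read 11.25, 11.39 and 11.19 in AN3-GR and 11.49, 11.50 and 11.15 in wild type, so that wild type replicate 3 was the lowest of all 6 arrays while the other wild type arrays were the highest. The log2 change was −0.10 (SE 0.12, 95% interval −0.38 to 0.17; limma, adjusted p = 0.682). Without wild type replicate 3 the change was −0.22 (adjusted p = 0.231). CHLI2, the second gene for the ATPase subunit, read 10.07 to 10.10 in AN3-GR and 10.07 to 10.12 in wild type, with a change of −0.01 (SE 0.08; limma, adjusted p = 0.979).

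CHLM had the clearest separation of the 10. It encodes the methyltransferase that acts on magnesium protoporphyrin IX directly after the chelatase. Its log2 expression was 11.88, 11.96 and 12.00 in AN3-GR and 12.20, 12.32 and 12.14 in wild type. Each AN3-GR array lay below each wild type array, which was so for 1 of the 10 chlorophyll genes and for 9.4% of all probe sets. The log2 change of −0.27 (SE 0.09, 95% interval −0.48 to −0.06) corresponds to −17.2% in level, from means of 11.95 ± 0.06 and 12.22 ± 0.09 (SD, n = 3 each). It did not pass over all probe sets (limma, unadjusted p = 0.0175, adjusted p = 0.181), nor with the block (adjusted p = 0.104). The two-sided exact permutation test of this gene gave p = 0.1, the smallest value that 3 against 3 arrays allow. Over the other settings the change of CHLM stayed between −0.34 and −0.22, and its adjusted p without the block ran from 0.0681 with array weights to 0.696 without both arrays of replicate 1.

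CRD1 encodes the membrane subunit of the cyclase that follows, which closes the fifth ring of the pigment. CRD1 read 11.91, 12.11 and 11.91 in AN3-GR and 12.14, 12.09 and 12.04 in wild type. AN3-GR replicates 1 and 3 lay below all wild type arrays, and AN3-GR replicate 2 lay among them. The change was −0.11 (SE 0.10, 95% interval −0.33 to 0.10; limma, adjusted p = 0.569). LCAA, a further protein needed by the cyclase, had a change of −0.02 (SE 0.09; limma, adjusted p = 0.939).

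PORB and PORC encode protochlorophyllide oxidoreductases, which reduce protochlorophyllide in the light. PORB read 11.39, 11.53 and 11.48 in AN3-GR and 11.51, 11.53 and 11.54 in wild type, a change of −0.06 (SE 0.09; limma, adjusted p = 0.760). PORC read 11.18, 11.20 and 11.15 in AN3-GR and 11.16, 11.17 and 11.23 in wild type, a change of −0.01 (SE 0.09; limma, adjusted p = 0.950). PORC was the steadiest of the 10, with 0.0829 between its lowest and highest array. PORA, the isoform of dark-grown seedlings, had a change of −0.08 (SE 0.10; limma, adjusted p = 0.721). Whether probes of one POR gene also bind transcripts of the others was not examined here.

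CAO encodes the oxygenase that converts chlorophyll a to chlorophyll b. It read 7.61, 7.88 and 7.78 in AN3-GR and 7.88, 7.94 and 7.78 in wild type. AN3-GR replicate 1 was the lowest array. Wild type replicates 1 and 2 lay above all AN3-GR arrays. Wild type replicate 3 lay below AN3-GR replicate 2 and just below AN3-GR replicate 3. The log2 change was −0.11 (SE 0.10, 95% interval −0.34 to 0.13; limma, adjusted p = 0.612).

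**Figure D2:**
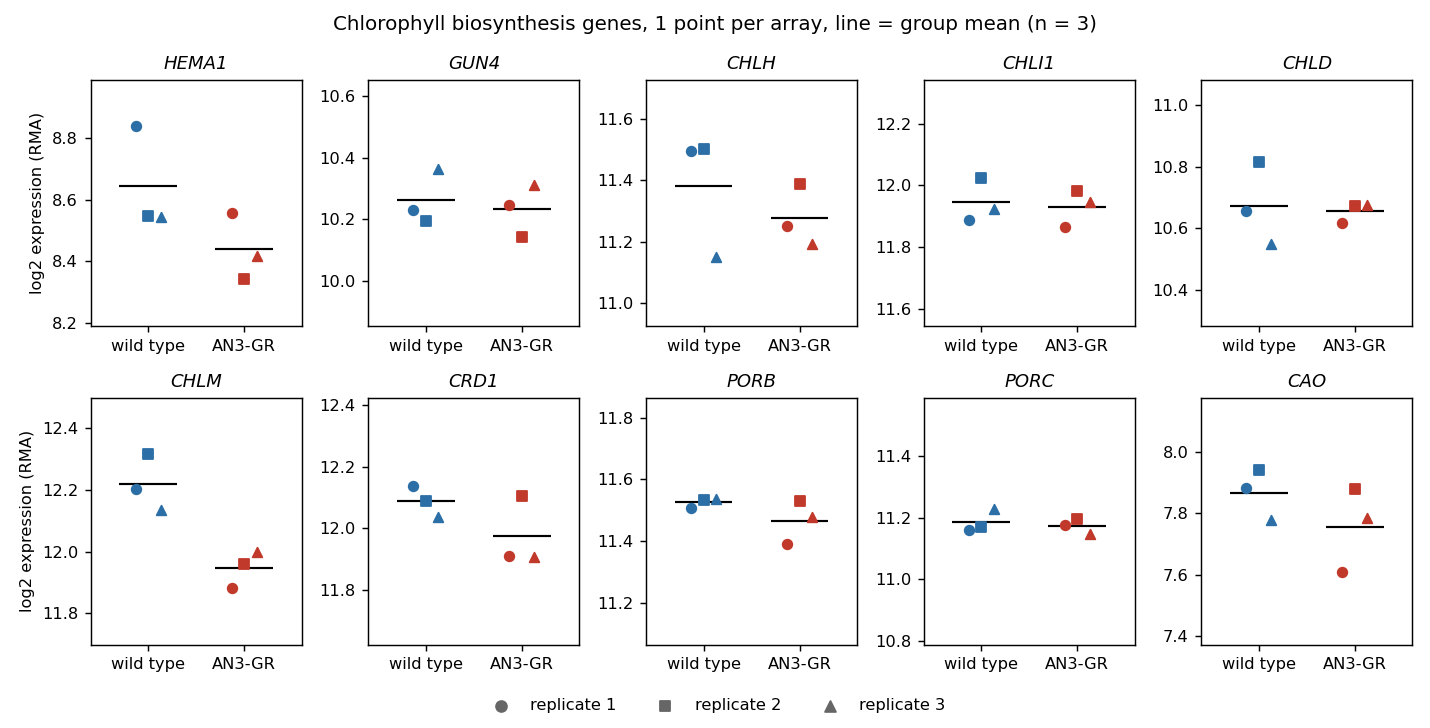
Log2 expression (y axis, each panel spanning the same range) of the 10 chlorophyll biosynthesis genes in wild type (blue) and AN3-GR (red), 1 point per array with the shape giving the replicate number and lines at the group means. The groups are apart in the CHLM panel and overlap in the other panels.

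Across the 6 arrays the 10 genes did not follow a single profile. The lowest array was an AN3-GR array for 8 genes and wild type replicate 3 for the other 2, CHLH and CHLD. The highest was a wild type array for all 10, namely replicate 2 for 5 genes, replicate 3 for 3 and replicate 1 for 2. Pearson's r between a gene and the mean of the other 9, over the same 6 arrays, was 0.88 for CHLM, 0.81 for CAO and 0.78 for CRD1. It was −0.13 for PORC and −0.42 for GUN4, so those genes did not follow the mean of the others. These values rest on 6 arrays that share genotype and replicate number, and they are given with no test.

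The mean over the 10 genes, each set to its own mean over the arrays, was −0.08, −0.01 and −0.05 on AN3-GR replicates 1 to 3 and 0.07, 0.08 and −0.01 on wild type replicates 1 to 3. Wild type replicate 3 thus lay next to AN3-GR replicate 2. Green leaf markers, chiefly photosystem antenna and carbon fixation genes, moved in the same direction with larger spread, from −0.23 to 0.13 in AN3-GR and from 0.01 to 0.22 in wild type. Each of the 9 markers measured was lower in its AN3-GR mean, the median change was −0.16, and 0 passed in limma. RCA, rubisco activase, had −0.24 (SE 0.11), and the antenna genes LHCB4.1 and LHCB3 had −0.11 (SE 0.09) and −0.09 (SE 0.18). Carbonic anhydrase gene CA1, at −0.43 (SE 0.11; limma, adjusted p = 0.103), passed with the replicate block (adjusted p = 0.0412). That is 1 of the 9 markers, where 6.63% of all probe sets were called with the block. In whole leaves, fewer green cells and less transcript per cell cannot be told apart. The part of the marker shift in the chlorophyll gene values was not tested.

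**Figure D3:**
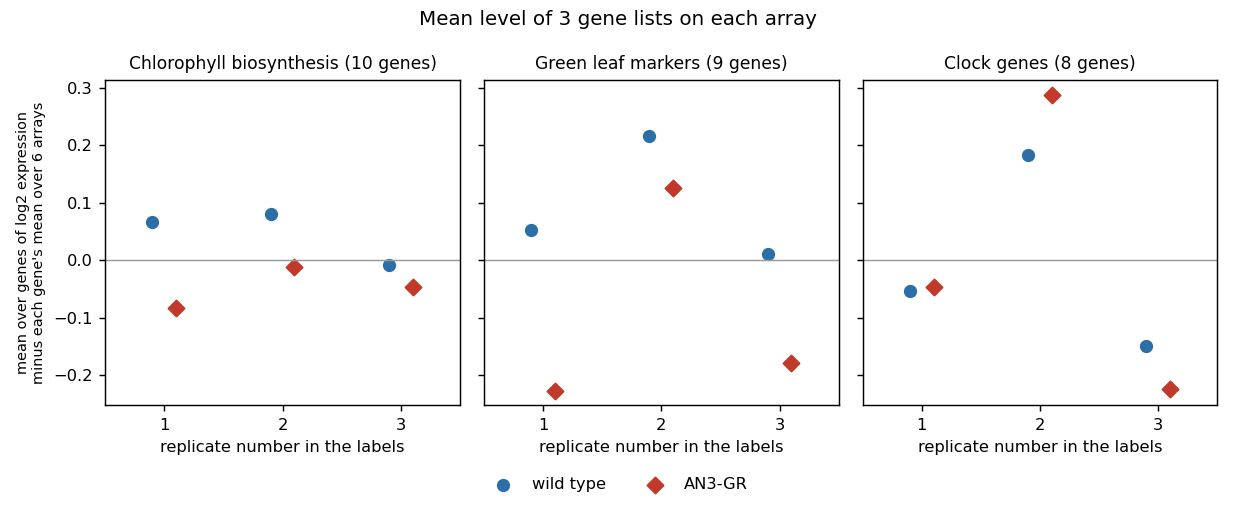
Mean over genes of log2 expression minus each gene's mean over the 6 arrays (y axis) for 3 gene lists, by replicate number (x axis), in wild type (blue circles) and AN3-GR (red diamonds). The mean of the clock genes is highest in replicate 2 of both genotypes, and the mean of the chlorophyll genes spans −0.08 to 0.08.

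Clock genes, which set the daily rhythm of many chlorophyll genes, had their highest mean on replicate 2 in both genotypes, and no difference between genotypes was detectable. GI, a clock gene with an evening peak that was singled out after its values were seen, read 7.02 in AN3-GR replicate 2 and 6.73 in wild type replicate 2, against 5.71 to 5.94 on the other arrays. Not every clock gene followed this mean. LHY was highest on replicate 1 in both genotypes, at 4.16 in AN3-GR and 4.46 in wild type. CCA1 was highest on replicate 1 in wild type (3.44) and on replicate 2 in AN3-GR (3.35). Both had weak signals, with wild type means of 4.11 for LHY and 3.33 for CCA1. The 8 measured clock genes had a median change of −0.02 and 0 passed, with or without the block. Their largest positive changes were those of PRR5 at 0.18 (SE 0.13) and PRR7 at 0.17 (SE 0.23), and the most negative were CCA1 at −0.17 (SE 0.11) and ELF4 at −0.08 (SE 0.16). Leaving out both arrays of replicate 2 gave a median of −0.09 for the 10 chlorophyll genes and again 0 calls. That fit called only 0.028% of all probe sets, with changes of at least 1.59 in size, so its count could hardly differ from 0.

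No gene of the steps before the magnesium branch passed either. Of 12 measured genes from 5-aminolevulinic acid formation to protoporphyrin IX 10 were negative, the median was −0.06, and 0 passed with or without the block. GSA1 and GSA2, the aminotransferases that make 5-aminolevulinic acid, had the highest values, 0.09 (SE 0.09) and 0.02 (SE 0.09). HEMB2, a weakly expressed second copy for porphobilinogen synthase, and HEMF2, a copy for coproporphyrinogen oxidase, had the lowest, −0.31 (SE 0.12; limma, adjusted p = 0.211) and −0.26 (SE 0.18; adjusted p = 0.474). Each AN3-GR array of HEMB2 lay below each wild type array, as in 9.4% of all probe sets. Its signal was near the lower quartile of probe set means, 4.06, where RMA values respond weakly to transcript level. The 95% interval of HEMF2, −0.67 to 0.14, reached past a 1.5-fold change.

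Among 4 other late genes 0 passed and the median was −0.02. GGR, the geranylgeranyl reductase that supplies the phytyl tail, read 11.68, 11.72 and 11.69 in AN3-GR and 11.87, 11.89 and 11.83 in wild type. The AN3-GR arrays all lay below the wild type arrays, as in 9.4% of all probe sets. The change was −0.17 (SE 0.09; limma, adjusted p = 0.341). CHLG, the synthase that attaches the tail, had −0.02 (SE 0.09), and DVR, the divinyl reductase, had 0.03 (SE 0.10). The 4 proteins that bind or anchor pathway enzymes also had 0 calls, with a median of −0.05. FLU, which restrains 5-aminolevulinic acid synthesis in the dark, had 0.02 (SE 0.09), and GBP, which tethers glutamyl-tRNA reductase to the membrane, had −0.04 (SE 0.09). The antenna-like proteins LIL3:1 and LIL3:2, which stabilise late enzymes, had −0.07 (SE 0.09 each).

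Both GLK transcription factors had lower readings in AN3-GR. GLK1 read 8.97, 9.20 and 9.44 in AN3-GR and 9.53, 9.68 and 9.87 in wild type, with each AN3-GR array below each wild type array. The log2 change of GLK1 was −0.49 (SE 0.14). It did not pass without the block (limma, adjusted p = 0.125), and it passed with it (adjusted p = 0.0257). GLK2 read 7.67, 7.62 and 7.84 against 7.95, 7.98 and 8.05, again with no overlap. Every AN3-GR array lay below every wild type array in 9.4% of all probe sets. The change of GLK2 was −0.28 (SE 0.10; limma, adjusted p = 0.181, and 0.0832 with the block).

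HY5 and CGA1 had changes of the opposite sign. HY5, a bZIP factor of light signalling, read 7.50, 7.35 and 7.53 in AN3-GR and 7.10, 7.03 and 7.22 in wild type, a change of 0.34 (SE 0.10; limma, adjusted p = 0.134). It missed the threshold with the block (adjusted p = 0.0503) and passed with array weights (0.0475). CGA1, a GATA factor that promotes greening and responds to cytokinin, had 0.35 (SE 0.11; limma, adjusted p = 0.153, and 0.0613 with the block). Of the 12 transcription regulators 5 were negative and 7 positive, with a median of 0.09 and 0 called without the block. The phytochrome-interacting factors PIF1 and PIF3, which repress chlorophyll genes in the dark, had −0.09 (SE 0.22) and −0.04 (SE 0.10).

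**Figure D4:**
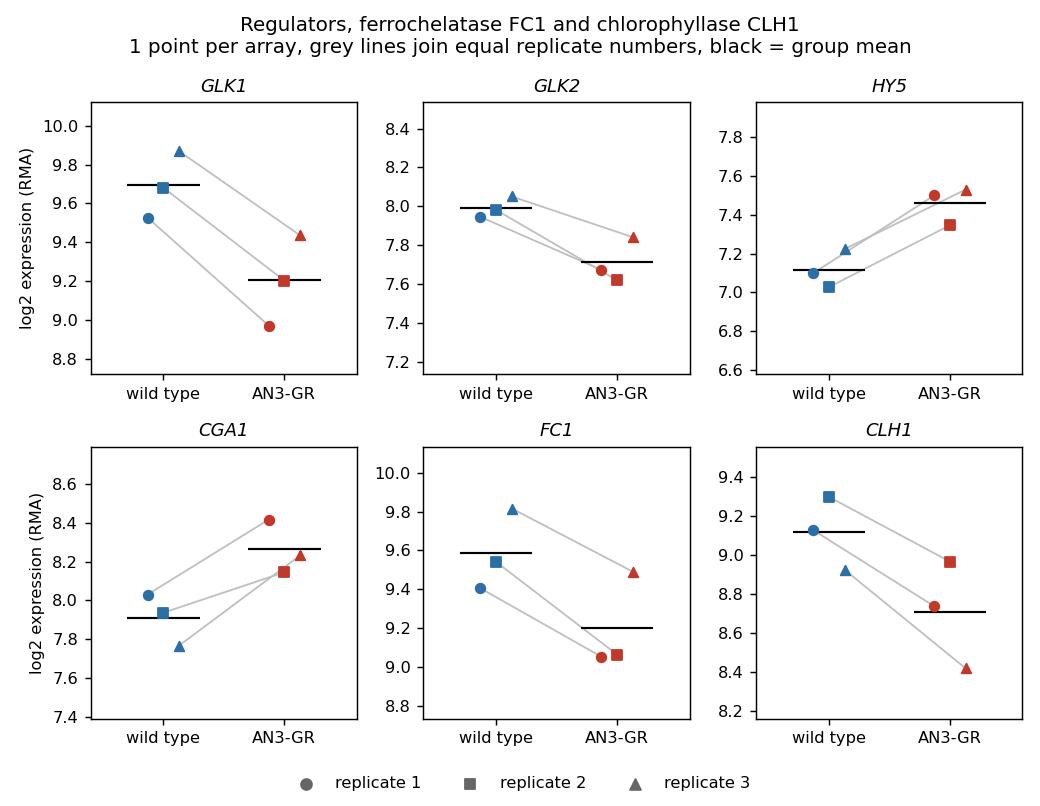
Log2 expression (y axis, each panel spanning the same range) of GLK1, GLK2, HY5, CGA1, FC1 and CLH1 in wild type (blue) and AN3-GR (red), 1 point per array, with grey lines joining equal replicate numbers and black lines at the group means. These 6 were picked for plotting after their values were seen, and in every panel all 3 grey lines run the same way. For GLK1, GLK2, HY5 and CGA1 the groups do not overlap, so the lines had to. The labels do not say that equal numbers are pairs.

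At the branch to heme, 7 of 9 measured genes were negative, the median was −0.06 and 0 passed without the block. FC1, a ferrochelatase, read 9.05, 9.06 and 9.49 in AN3-GR and 9.41, 9.54 and 9.82 in wild type, with AN3-GR replicate 3 above wild type replicate 1. Its log2 change of −0.38 (SE 0.15; limma, adjusted p = 0.227) passed with the block (adjusted p = 0.0411). FC2, the ferrochelatase that predominates in green leaves, had −0.12 (SE 0.09; limma, adjusted p = 0.517). UPM1, which leads to siroheme, had the highest value at 0.08 (SE 0.12), and HO4, a heme oxygenase with a signal under the lower quartile, had 0.02 (SE 0.10).

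Chlorophyll breakdown genes had the most negative median of the pathway lists, −0.20, with 9 of 9 measured genes negative and 0 passing without the block. CLH1, a chlorophyllase known to be induced by jasmonate and wounding, read 8.74, 8.97 and 8.42 in AN3-GR and 9.13, 9.30 and 8.92 in wild type. AN3-GR replicate 2 exceeded wild type replicate 3, so the groups overlapped. The change of CLH1 was −0.41 (SE 0.15; limma, adjusted p = 0.209), and it passed with the block (adjusted p = 0.0364). RCCR, which acts late in breakdown, had −0.22 (SE 0.10), while NOL, a chlorophyll b reductase, had −0.06 (SE 0.11) and HCAR, the other reductase of the chlorophyll cycle, had −0.03 (SE 0.15). Over all 54 other pathway genes, relatives and regulators included, 0 passed without the block and 3 were lower with it, GLK1, FC1 and CLH1. That is 5.56% of them, against 6.63% of all probe sets called with the block. Of the 54, 8 had every AN3-GR array below every wild type array and 3 had every one above. Among all probe sets these shares were 9.4% and 12.8%.

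**Figure D5:**
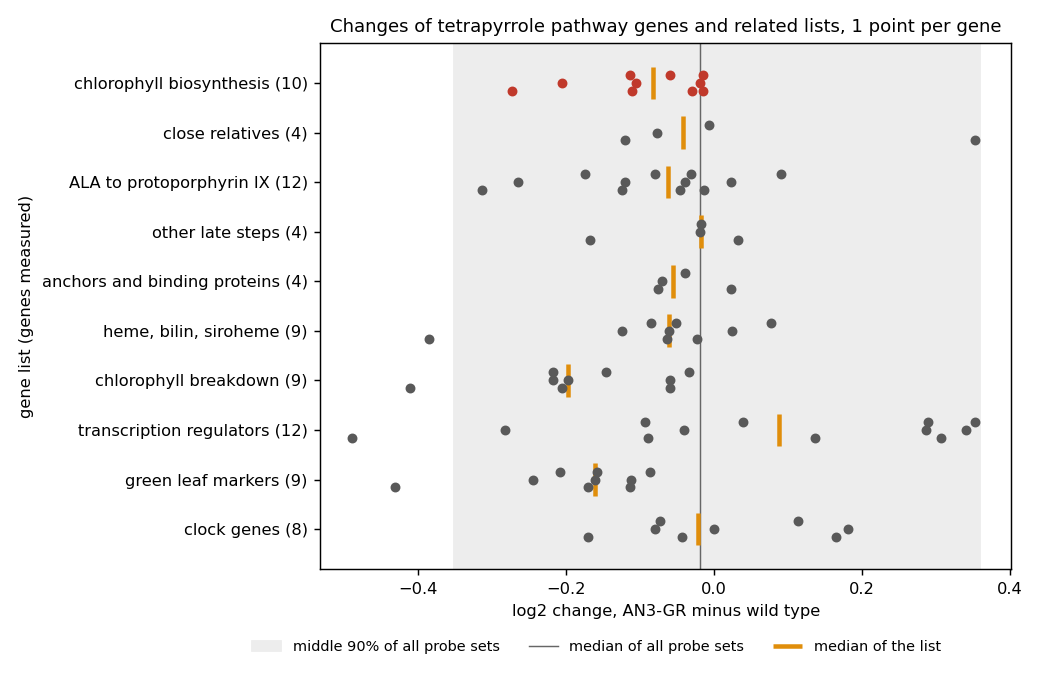
Log2 change, AN3-GR minus wild type (x axis), for the 10 chlorophyll biosynthesis genes (red) and 9 related lists (y axis, genes measured in brackets), 1 point per gene, with list medians in orange. All 10 chlorophyll genes lie inside the grey band that holds the middle 90% of all probe sets, while GLK1, FC1, CLH1 and CA1 lie below it.

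The 5 loci outside these lists whose profile over the 6 arrays was most like the mean of the 10 genes were LTI65 (Pearson's r = 0.996), AT4G11210 (0.99), COPT3 (0.99), AT4G36470 (0.99) and PG2 (0.99). They are the highest of 15989 candidates over 6 arrays, so high values are bound to occur. LTI65, AT4G11210, COPT3 and AT4G36470 had weak signals, with wild type means of 4.42, 4.34, 4.69 and 4.94. PG2 had a wild type mean of 10.62. None passed in limma without the block, with adjusted p-values from 0.151 to 0.390.

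AN3 itself read 10.02 to 10.56 in AN3-GR and 6.98 to 7.61 in wild type, so all 6 arrays matched their genotype labels (8.26-fold, limma adjusted p = 0.000303). Its probe set does not separate the fusion from the native gene. The green leaf markers of the labelled tissue were strongly detected, with means from 11.88 to 13.38, and the 4 root and 4 shoot meristem markers measured had means of 3.33 to 5.66 and 3.18 to 4.18. Levels of different probe sets are not comparable, and no root or meristem sample was analysed here, so these values do not measure tissue content. Changes of the root markers ran from −0.15 to 0.01 and those of the meristem markers from −0.06 to −0.03, and 0 passed with or without the block. Array medians lay between 6.22 and 6.32. Of the 10 chlorophyll genes 9 had means above the upper quartile of all probe sets, 8.04, and CAO lay just below it, so none lay in the range of weak signals.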

How the data were processed

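The deposited values are log2 expression, made by the authors with RMA and limma per the submitters' processing notes, where versions are not given. RMA removes shifts shared by all genes, so a change is relative to the other genes. The version of the locus-based probe grouping and the genome build are not given in the sources used here.

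Genotypes were compared in limma 3.58.1 (R 4.3.3) by lmFit and eBayes over all 21428 probe sets and 6 arrays, with no filter or covariate, two-sided, with Benjamini-Hochberg adjustment and a threshold of 0.05. The fit was tested on simulated data. Names came from the deposited loci and the RefSeq gene table of TAIR10.1, which matched 21231 loci. That table calls CHLH GUN5, CHLD ALB1 and CAO CH1. No member shared identical values with another probe set.

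The members and the lists, 94 entries of which 89 were measured, were chosen with earlier results of these data known. Named genes were the 10 members, the relatives HEMA2, HEMA3, CHLI2 and PORA, the regulators GLK1, GLK2, HY5, PIF1 and PIF3, AN3, in each other list the genes passing the test and the 2 highest and 2 lowest changes, and the 5 most alike loci. Root and meristem markers are given as ranges, and GI was named after its values were seen.

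The labels number the replicates 1 to 3 in both genotypes and call them biological repeats. Deviations from the group means correlated between arrays of equal number at 0.16, 0.42 and 0.49 over all probe sets, each above a bound of 0.1, so blocked values are given where they change a call. The pairing rests on these numbers and correlations. The labels do not say what a number stands for. The number of arrays limits the precision. Alternatives were a second quantile normalization, median centring, leaving out the weakest 25% or 50% of probe sets, a trend with robust prior, weighting of arrays, the replicate block, dropping each array in turn and, added after the clock genes were seen, both arrays of a replicate number.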

Additional observations from a re-analysis of the deposited data

How the results depend on the processing

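The count of 0 chlorophyll genes called held under all 16 other settings, 3 of which were added after the data were seen. The share of probe sets called was 0.649% to 6.63% with all arrays kept, and 0.0187% to 3.64% with arrays left out. Except without wild type replicate 3, each fit with arrays left out called only changes of 0.739 or more in size. The largest chlorophyll gene change there was −0.340, for CHLM, so those fits could hardly have called any of them. The median change of the chlorophyll genes moved from −0.08 to between −0.124 and −0.0328 with arrays left out. It was −0.0328 without both arrays of replicate 1 and −0.0355 without AN3-GR replicate 1, and it stayed within the spread between replicates under the settings that kept all arrays. With arrays left out the changes ran from −0.0686 to 0.0205 for GUN4, from −0.0432 to 0.0252 for CHLI1, from −0.0904 to 0.0530 for CHLD and from −0.0340 to 0.0202 for PORC, so these 4 had no settled sign, and the other 6 stayed negative under every setting. The replicate block changed the call of no chlorophyll gene. It raised the count over the 54 other pathway genes from 0 to 3, or 5.56% against 6.63% of all probe sets, and array weights raised it to 1, HY5, or 1.85% against 5.28%. CA1 also passed with the trend and robust prior (adjusted p = 0.0324) and with array weights (0.0399) in limma. Those settings called 2.6% and 5.28% of all probe sets. The loci AT4G11210 and AT4G36470, chosen for likeness, passed with array weights, and AT4G36470 without wild type replicate 3.

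Over all probe sets the count of 169 became 564 without the weakest 50%, 558 with the trend and robust prior, 1132 with array weights and 1420 with the block, and 4 to 779 with arrays left out, the highest without wild type replicate 3. The share of higher calls was 71.0%, against 49.6% after median centring, 58.1% after a second quantile normalization and 54.2% with the block. The cause was not tested.

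Several changes near 0 turned sign. Median centring gave −0.011 for GSA2, −0.0013 for DVR, −0.011 for FLU and −0.0099 for HO4. Array weights gave −0.032 for HO4 and 0.015 for HCAR. With arrays left out the ranges were −0.015 to 0.0091 for CHLI2, −0.34 to 0.15 for PIF1, −0.12 to 0.0438 for PIF3, −0.012 to 0.0480 for GSA2, −0.0651 to 0.0242 for CHLG, −0.0467 to 0.0042 for LCAA, −0.019 to 0.0906 for DVR, −0.00068 to 0.0621 for FLU, −0.0773 to 0.11 for HO4, −0.14 to 0.0168 for NOL, −0.16 to 0.0724 for HCAR, −0.24 to 0.0632 for ELF4, −0.0841 to 0.35 for PRR7 and −0.31 to 0.0268 for LHCB3. The number of arrays, 3 per group, limits what can be resolved.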
